A study of Danio rerio with 24 samples.

Results

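Perfluorohexane sulfonate (PFHxS) at 0.0025 µM, the lower of 2 doses, was compared with its vehicle in zebrafish larvae (Danio rerio, genotype given as wildtype) kept under 14 h of light and 10 h of darkness a day. Exposure ran from 0.75 to 120 hours post fertilisation (hpf), and whole animals were collected at 120 hpf. The exposed group received 0.0025 µM PFHxS in 0.1% dimethyl sulfoxide (DMSO) and the vehicle group received 0.1% DMSO alone, with 4 RNA-seq libraries in each. These 8 libraries belong to a series of 24 in 6 groups, which also holds a 25 µM group under the cycle and the same 3 doses in constant darkness (24 h dark). The genes described are those with at least 0.5 FPKM (fragments per kilobase of gene, scaled to sequencing depth) in at least 4 of the 12 cycle libraries, 18917 of 32520 in the table. The photoperiod was read from the sample titles, since the treatment description names darkness for every sample. The number of larvae per library and the clutches are not stated, so each p-value here reflects the spread between libraries alone, and that spread may be technical.

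PFHxS is a fluorinated surfactant that resists degradation, binds to blood proteins and is retained in liver and kidney. In mammals, compounds of its class activate the nuclear receptors PPARα, CAR and PXR, which switch on genes of fatty acid oxidation and of the cytochrome P450 families that handle foreign compounds, and they lower circulating thyroid hormone. At 120 hpf a zebrafish larva has a working liver, gut, pancreas and eye, so genes of all these tissues can be read from RNA of the whole animal. The series title concerns whether changes of photoperiod alter the developmental toxicity of PFHxS. The contrast described here gives the effect of the lower dose under the ordinary cycle.

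Fragments assigned to genes numbered 10.45 to 18.5 M in the exposed libraries and 10.09 to 18.2 M in the vehicle libraries (two-sided exact permutation p = 0.8, 70 splits, smallest possible p = 0.0286). Transcripts of the 13 mitochondrially encoded proteins took 5.11% ± 0.115 of fragments in exposed larvae and 5.04% ± 0.209 in vehicle larvae (SD, n = 4 each, exact permutation p = 0.629). Markers of the tissues of a whole larva were present in both groups. Levels were alike for the pancreatic trypsin prss1 (mean of 4566 FPKM in exposed and 4285 FPKM in vehicle larvae), the rod opsin rho (1111 and 1102 FPKM), the liver fatty acid binding protein fabp10a (800 and 739 FPKM) and the lens crystallin cryba4 (708 and 725 FPKM). The liver marker serpina1l had a log2 fold change of 0.47, but its groups overlapped and its unadjusted p was not below 0.05. The egg yolk precursor vtg1 lay near 0 in both groups (0.106 FPKM in exposed and 0.0369 FPKM in vehicle larvae). Log2 values of 2 exposed libraries correlated with r of 0.929 to 0.954, and those of an exposed and a vehicle library with r of 0.941 to 0.957. The first principal component of these 8 libraries (23.3% of the variance) placed exposed replicate 2 at 43.6 and exposed replicate 3 at -42.8, with the 4 vehicle libraries between -8.54 and -4.17. For 8 gene lists, results that these libraries moved by over 1.5 times are given with and without them. In RNA of whole animals, fewer cells of a type and less RNA per cell cannot be told apart.

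No gene passed the test at 0.0025 µM. Of 18917 genes, 0 (0%) had an adjusted p below 0.05 (limma with Benjamini-Hochberg adjustment), and the smallest adjusted p was 0.322. An unadjusted p below 0.05 was found for 1029 genes (5.44%), of which 400 (2.11%) were higher and 629 (3.33%) lower in exposed larvae. When the libraries were scaled to equal totals, that split was 533 higher and 490 lower. Fitted with limma-voom on the fragments recovered from the FPKM, 0 genes passed and 1316 (6.96%) had an unadjusted p below 0.05. The 4 exposed libraries all lay above or all below the 4 vehicle libraries for 585 genes (3.09%), 251 (1.33%) above and 334 (1.77%) below. At 25 µM under the same cycle, against the same vehicle libraries, 328 genes (1.73%) passed and 16.1% had an unadjusted p below 0.05.

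The absence of calls is bounded by the width of the intervals. The median standard error of a log2 fold change, taken on the log2(FPKM + 0.1) scale throughout, was 0.19, and the median 95% interval reached 0.41 to either side. For 14728 genes (77.9%) the whole interval lay within a 2-fold change in either direction, and for 9760 genes (51.6%) it lay within 1.5-fold. Abundance set this precision. Among the 5105 genes with a mean of 10 to 100 FPKM, 96.5% had an interval within 2-fold, against 29.8% of the 2865 genes below 1 FPKM. A fitted change of at least 2-fold was seen for 397 genes, of which 226 had a mean below 1 FPKM and 0 a mean over 100 FPKM. The gene with the smallest p was of this kind. CR759907.1, annotated as an antisense transcript of 206 bases (chromosome 4, 69245481 to 69283666), had 4, 4, 4 and 5 fragments in the exposed libraries, against 0, 0, 0 and 1 in the vehicle libraries. The ratio of its levels was 17.8, with an exact 95% interval of 2.79 to 743 that covers counting error only (adjusted p = 0.322).

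Since no gene passed, the 12 genes with the smallest p are given among those with a mean of at least 1 FPKM, a gene symbol and groups that did not overlap. Their adjusted p ran from 0.838 to 0.882. Coordinates are those of the deposited table, whose genome build is not given in the sources used here. Of the 12, 4 lay above vehicle and 8 below. The first was exosc1, a subunit of the RNA exosome, which trims and degrades RNA from the 3′ end (chromosome 1, 54700657 to 54706039). It had 63.4, 86.4, 72.6 and 75.4 FPKM in exposed larvae, against 51.8, 46.9, 52.6 and 40.6 FPKM in vehicle larvae. The lowest exposed library stood above the highest vehicle library, and the log2 fold change was 0.63 ± 0.12 (SE, n = 4 each, unadjusted p = 0.000179). Azin1b, an antizyme inhibitor that protects the polyamine enzyme ornithine decarboxylase, had the largest difference of the 12 (chromosome 19, 32930476 to 32944050). It had 17.8, 19.1, 25.6 and 11.7 FPKM in exposed larvae, against 9.05, 9.25, 6.55 and 11.1 FPKM in vehicle larvae. Exposed replicate 4 barely cleared the highest vehicle library, and the log2 fold change was 1.01 ± 0.22 (unadjusted p = 0.000627). GID4, the substrate receptor of a ubiquitin ligase, had 6.92, 7.26, 6.33 and 7.03 FPKM in exposed larvae, against 4.35, 2.15, 3.98 and 5.02 FPKM in vehicle larvae (0.88 ± 0.21). Its exposed libraries were tightly grouped and its vehicle libraries spread widely. Cyhr1, which encodes a cysteine and histidine rich protein, had 27.12, 30.6, 26.9 and 26.9 FPKM in exposed larvae, against 23.9, 20.3, 22.3 and 21.8 FPKM in vehicle larvae (0.34 ± 0.08). This was the smallest difference of the 12.

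Among the 8 genes below vehicle, txnl4a and snrnp40 encode proteins of the U5 particle of the spliceosome. Txnl4a (chromosome 19, 20793237 to 20796910) had 12.5, 11.2, 15.7 and 12.9 FPKM in exposed larvae, against 19.2, 19.6, 18.1 and 22.1 FPKM in vehicle larvae (-0.60 ± 0.12, unadjusted p = 0.000216). Snrnp40 (chromosome 19, 43004408 to 43016395) had 9.55, 8.61, 10.3 and 9.76 FPKM in exposed larvae, against 13.2, 12.8, 12.9 and 13.6 FPKM in vehicle larvae (-0.46 ± 0.09, unadjusted p = 0.000284). For both genes the vehicle libraries agreed closely and stood clear of every exposed library. Ssna1, which encodes a microtubule-binding protein of centrosomes and ciliary basal bodies (chromosome 5, 54545432 to 54554605), had 1.85, 1.29, 2.201 and 1.74 FPKM in exposed larvae, against 3.60, 3.96, 3.17 and 2.74 FPKM in vehicle larvae (-0.90 ± 0.18, unadjusted p = 0.000265). It had the largest difference of those below vehicle, at the lowest level. Golt1a, a protein of vesicle traffic to the Golgi apparatus (chromosome 11, 23327784 to 23332592), had 7.92, 7.21, 7.40 and 7.85 FPKM in exposed larvae, against 13.2, 15.2, 9.29 and 12.8 FPKM in vehicle larvae (-0.71 ± 0.14, unadjusted p = 0.000354). Here vehicle replicate 3 lay nearest to the exposed group. The Golgi glycosyltransferase gene glt8d1 (-0.47 ± 0.10), the WD repeat gene wdr83 (-0.59 ± 0.14), the mesodermal and neural crest transcription factor twist1a (-0.60 ± 0.14) and the fatty acid elongase elovl8b (-0.69 ± 0.17) made up the rest.

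The 25 µM cycle group was set against the same vehicle libraries, so its values stand beside these only as a description. Of the 12 genes, ssna1 fell at 25 µM (1.97, 1.66, 1.69 and 1.54 FPKM, log2 fold change -0.93, adjusted p = 0.0268) and cyhr1 rose (27.7, 32.1, 29.4 and 32.3 FPKM, 0.46, adjusted p = 0.017). Glt8d1 gave 8.001, 6.35, 7.36 and 7.66 FPKM at 25 µM, which overlapped the vehicle libraries (0.09). The log2 fold changes at 25 µM of the other 9 lay between -0.71 for elovl8b and 0.78 for azin1b, and none of them passed the test.

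**Figure D1:**
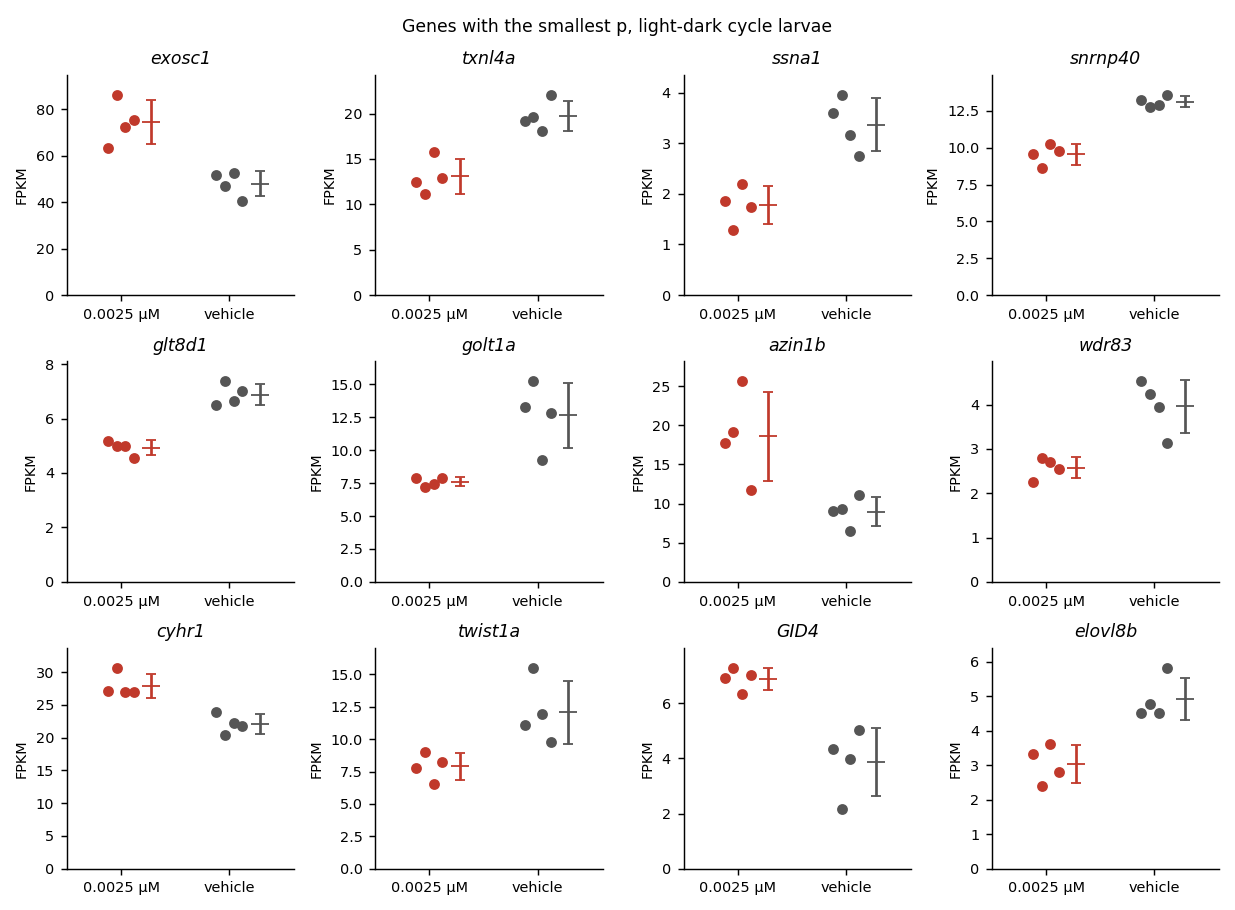
FPKM of the 12 genes with the smallest p in each library (points, replicates 1 to 4 from left to right) of the 0.0025 µM group (red) and the vehicle group (grey) under the light-dark cycle. Bars give the mean and SD, n = 4, and each axis starts at 0. The groups do not overlap in any panel, which the naming rule required, and the gap is narrowest for azin1b (11.7 FPKM in exposed replicate 4, 11.1 FPKM in vehicle replicate 4).

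Genes were then read in 44 lists of pathways and tissue markers, which held 1356 distinct tested genes. In none of the lists did a member pass the test, so each is described by the sign of its members, its median and the number with an unadjusted p below 0.05. For all 18917 genes the median log2 fold change was -0.02, and 10055 were below 0. At an unadjusted p below 0.05, 2.11% of all genes were higher and 3.33% lower. Groups did not overlap for 1.33% of all genes above vehicle and 1.77% below. These shares are the background for the counts in each list. Beyond the most abundant member, the members named per list were chosen after their values were seen, mostly for a small p and otherwise for a known role or as an extreme of the list. List medians ran from -0.41 for cell cycle and DNA replication to 0.17 for light-induced and photorepair genes.

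**Figure D2:**
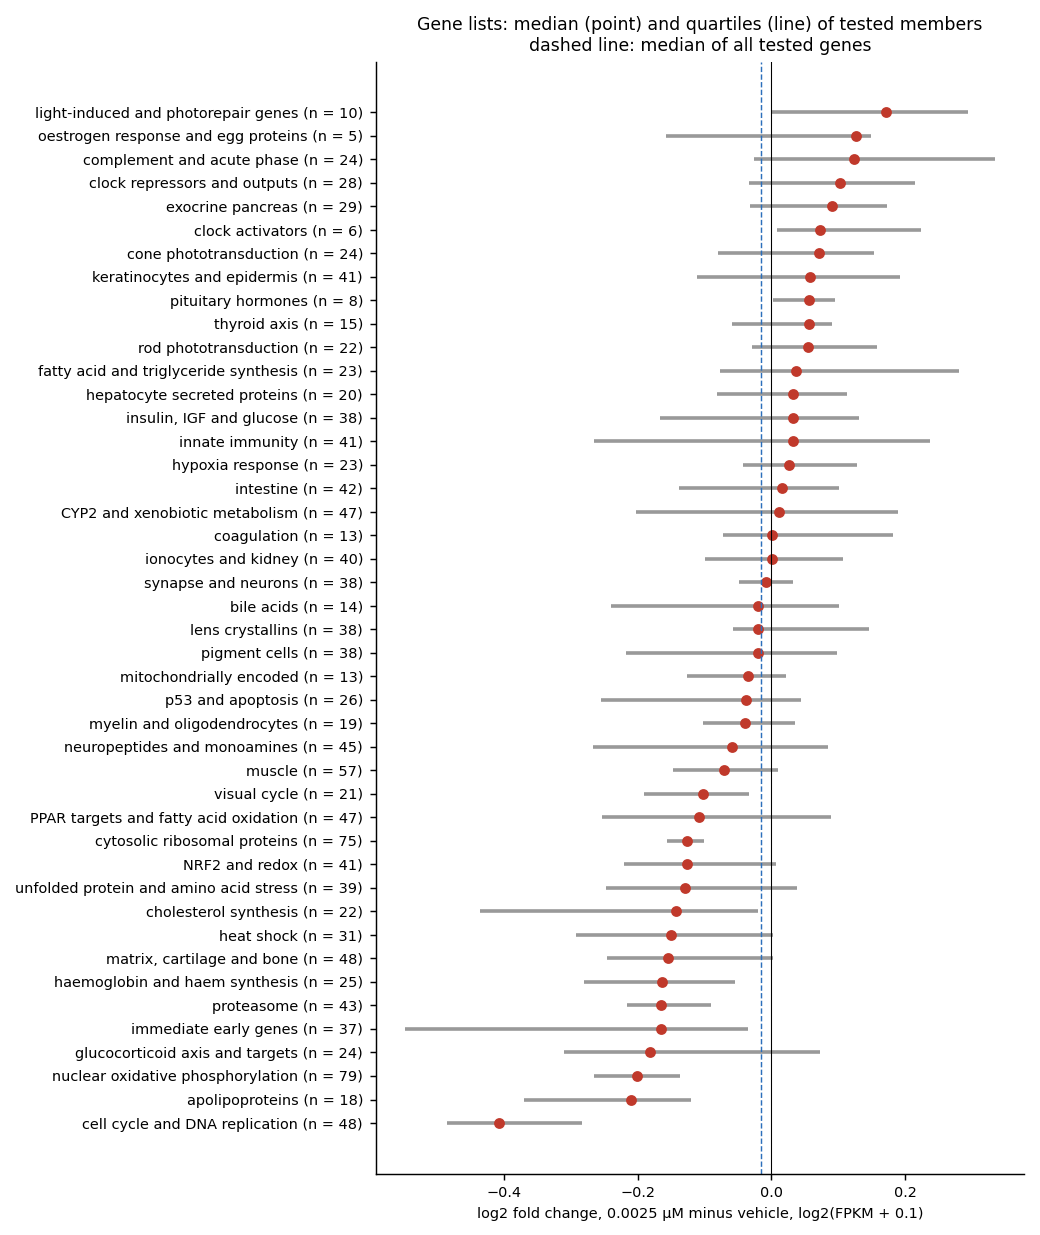
Median log2 fold change (points) and quartiles (grey lines) of the tested members of 44 gene lists, 0.0025 µM minus vehicle under the light-dark cycle, with the number of tested members beside each name. The dashed line marks the median of all 18917 tested genes (-0.02), and the cell cycle and DNA replication list (-0.41, n = 48) stands lowest.

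In the list of cell cycle and DNA replication genes, 47 of 48 tested members had a negative log2 fold change. The median was -0.41, and 12 members (25%) were lower at an unadjusted p below 0.05, against 3.33% of all genes. For 8 members the groups did not overlap, with exposed below vehicle, as for 1.77% of all genes. Mcm4, a subunit of the helicase that opens replication origins (chromosome 24, 35536664 to 35561672), had the smallest p. It had 6.89, 4.57, 7.45 and 5.90 FPKM in exposed larvae, against 11.1, 8.16, 8.74 and 13.6 FPKM in vehicle larvae. The groups did not overlap, and the log2 fold change was -0.73 ± 0.19 (unadjusted p = 0.00193, adjusted p = 0.882). Ccne2, the cyclin that starts S phase, had 2.09, 0.899, 1.65 and 1.44 FPKM in exposed larvae, against 2.85, 2.43, 2.24 and 2.87 FPKM in vehicle larvae (-0.78 ± 0.24). Next by p came the flap endonuclease fen1 (-0.60 ± 0.19), the S phase kinase cdk2 (-0.76 ± 0.26) and the cyclin ccnb3 (-0.69 ± 0.23). The thymidylate synthase gene tyms, which supplies a DNA precursor, gave the largest difference of the list (mean of 3.85 FPKM in exposed and 7.41 FPKM in vehicle larvae, -0.94 ± 0.37). Where a symbol was repeated, the list held its most abundant entry only. A less abundant entry of rrm2, outside the list, stood at -2.18, against -0.33 for the listed entry. The polymerase clamp pcna averaged 58.6 FPKM in exposed and 81.5 FPKM in vehicle larvae (-0.50 ± 0.21), and the kinesin kif23 was the 1 member above 0 (0.03). The most abundant member, the tubulin tuba8l, averaged 265 FPKM in exposed and 341 FPKM in vehicle larvae (-0.39 ± 0.16).

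The libraries did not share this shift equally. Taken relative to the vehicle mean, the median of the 48 members was -0.29, -0.76, -0.08 and -0.41 in exposed replicates 1 to 4, against 0.01, -0.13, -0.19 and 0.29 in vehicle replicates 1 to 4. Exposed replicate 3 lay inside the vehicle range, and exposed replicate 2 lay farthest below it. Without exposed replicate 2 the list median was -0.27 with 5 members lower at an unadjusted p below 0.05, and without exposed replicate 3 it was -0.51. Without vehicle replicate 4, the vehicle library highest for these genes, it was -0.31, and 5 members in place of 12 were lower at an unadjusted p below 0.05. At 25 µM under the cycle, against the same vehicle libraries, the list median was -0.76 and 2 members passed the test. In constant darkness, in libraries shared with neither contrast, the list median at 0.0025 µM was 0.10.

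**Figure D3:**
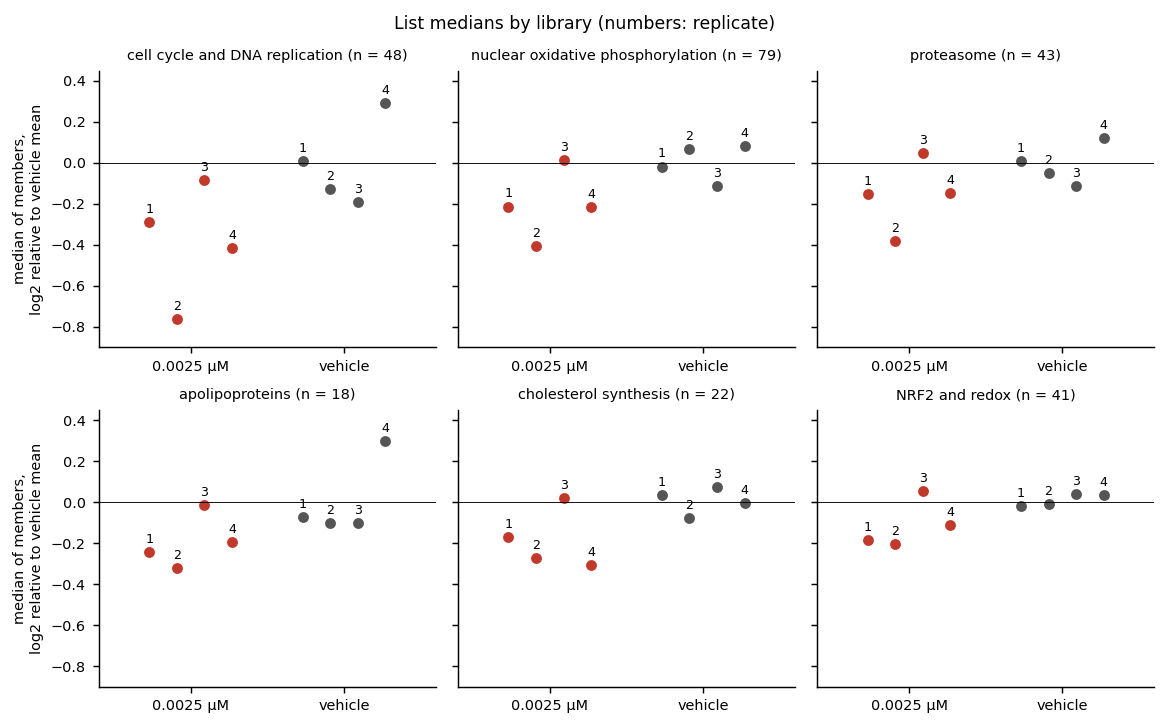
Median over the members of 6 gene lists in each library, as log2 relative to the mean of the 4 vehicle libraries, for the 0.0025 µM group (red) and the vehicle group (grey) under the light-dark cycle. Small numbers give the replicate, and n is the number of tested members. Exposed replicate 3 is the highest exposed library in all 6 panels, and exposed replicate 2 reaches -0.76 for the cell cycle list.

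Nuclear genes of oxidative phosphorylation, which encode most subunits of the respiratory chain and the ATP synthase, gave the highest share of unadjusted calls of the 44 lists. Of 79 tested members 74 were below 0, with a median of -0.20. Of the 79, 26 (32.9%) were lower at an unadjusted p below 0.05, against 3.33% of all genes, and 4 did not overlap between groups. Such a p was more frequent among abundant genes. In either direction it was found for 7.13% of genes with a mean of 10 to 100 FPKM and 8.20% of those over 100 FPKM. The ATP synthase subunit gene atp5mc1 had 232, 195, 289 and 203 FPKM in exposed larvae, against 306, 300, 280 and 325 FPKM in vehicle larvae (-0.41 ± 0.11, unadjusted p = 0.00363). Exposed replicate 3 overlapped the vehicle range. The complex I subunit gene ndufs5 had 116, 85.7, 122 and 108 FPKM in exposed larvae, against 125, 145, 133 and 144 FPKM in vehicle larvae (-0.35 ± 0.11). Its groups did not overlap. The most abundant member, the ATP synthase subunit gene atp5f1b, averaged 1019 FPKM in exposed and 1136 FPKM in vehicle larvae (-0.16 ± 0.09). The 13 mitochondrially encoded partners of these subunits had a median of -0.04, with 0 members at an unadjusted p below 0.05, from -0.14 for mt-nd3 to 0.19 for mt-nd4l.

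Gene length moved with the library in the same set. In exposed replicate 2 the median of protein-coding genes up to 1 kb was -0.18 relative to vehicle, against 0.09 for genes over 6 kb. Exposed replicates 1 (-0.071 and 0.025) and 4 (-0.055 and 0.025) ran the same way less strongly. Exposed replicate 3 ran weakly the other way (0.04 and -0.03). Of genes up to 1 kb, 7.47% were lower at an unadjusted p below 0.05, against 1.04% of those over 6 kb. Of the 79 oxidative phosphorylation genes 37 were no longer than 1 kb, and their median length was 1.03 kb, against 3.13 kb in the cell cycle list and 2.37 kb in the set of protein-coding genes with a mean of at least 1 FPKM. With the trend on gene length removed from each library (bins of genes ranked by length, centred on their medians), the median was -0.17 for oxidative phosphorylation, with 24 members lower, and -0.40 for the cell cycle list, with 13. Without exposed replicate 2 the oxidative phosphorylation median was -0.13 with 8 members lower, and without exposed replicate 3 it was -0.27 with 51. The number lower was 13 without vehicle replicate 2 or exposed replicate 4, 15 without exposed replicate 1 and 16 without vehicle replicate 4. In constant darkness its median at 0.0025 µM was 0.12, and at 25 µM under the cycle it was 0.11.

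**Figure D4:**
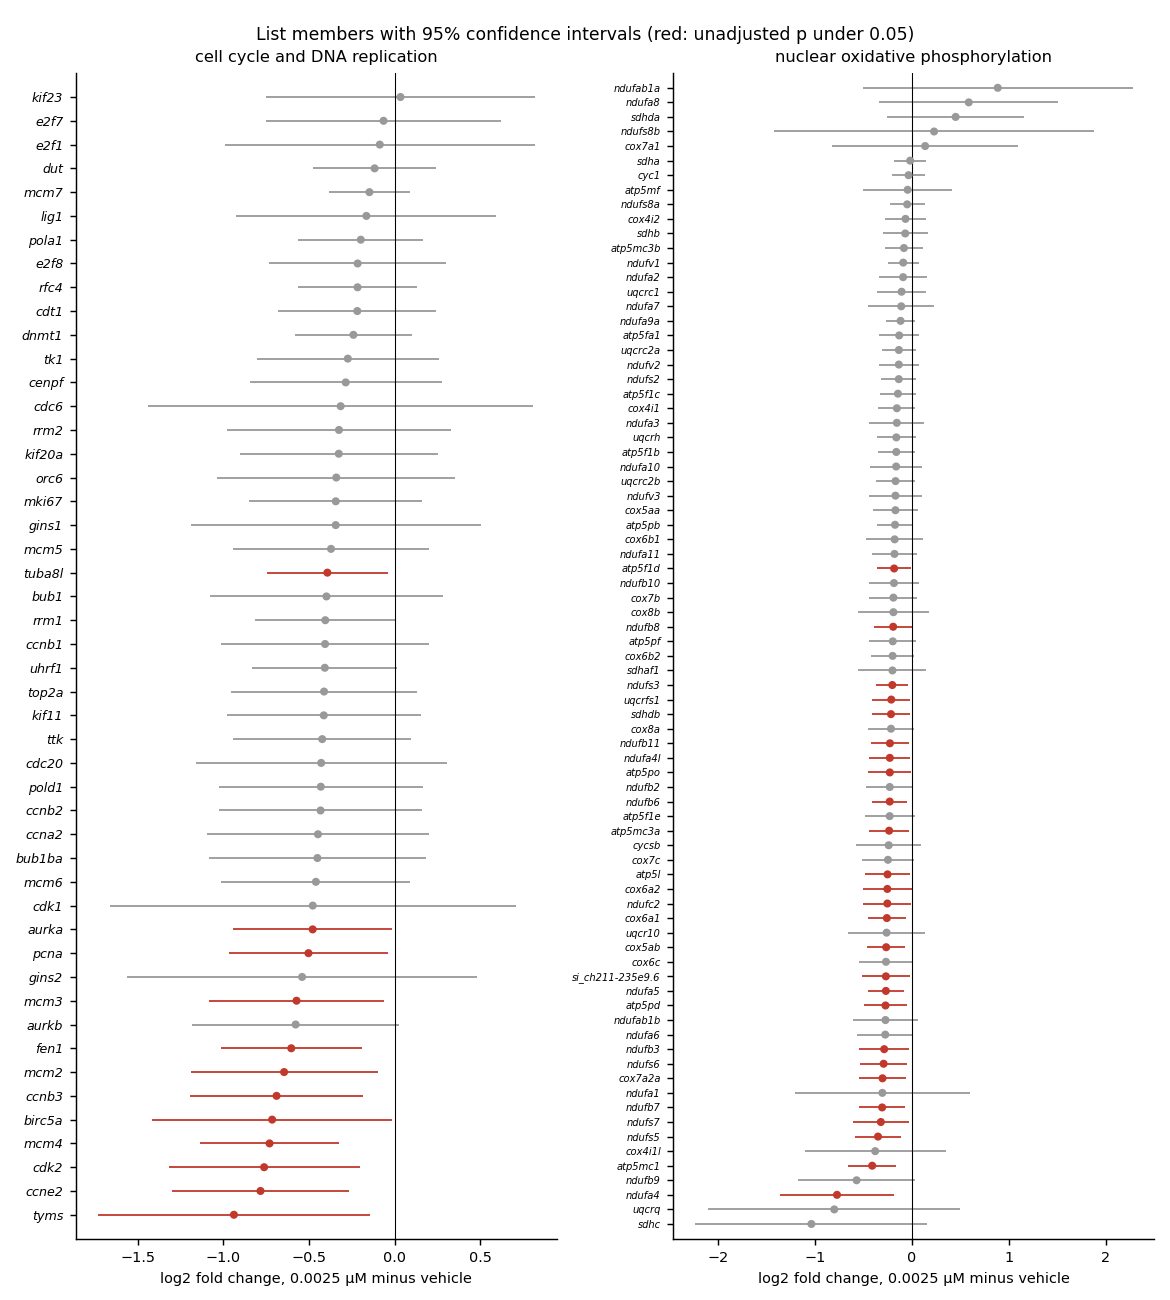
Log2 fold change, 0.0025 µM minus vehicle under the light-dark cycle, with its 95% interval, for the 48 cell cycle and DNA replication genes (left) and the 79 nuclear oxidative phosphorylation genes (right), in order of the fold change. Red marks an unadjusted p below 0.05 (12 and 26 members), and no member had an adjusted p below 0.05.

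Lists of protein turnover and synthesis had medians slightly below vehicle, though not in every exposed library. The proteasome list had 37 of 43 members below 0, a median of -0.16 and 6 members lower at an unadjusted p below 0.05. The median was -0.086 with 2 lower without exposed replicate 2, -0.23 with 16 lower without exposed replicate 3, and -0.13 with 2 lower without vehicle replicate 4. Leaving out exposed replicate 1 or vehicle replicate 2 gave 3 lower, and leaving out vehicle replicate 3 gave 10. Its smallest p belonged to psmg1, a chaperone of proteasome assembly, with 17.0, 14.7, 19.2 and 16.4 FPKM in exposed larvae, against 21.5, 22.6, 19.9 and 20.4 FPKM in vehicle larvae (-0.33 ± 0.09). Those groups did not overlap, by a narrow margin at exposed replicate 3. The cytosolic ribosomal protein list had 70 of 75 members below 0, 5 above 0 and a median of -0.13. Relative to the vehicle mean, its median was -0.14, -0.29, 0.06 and -0.14 in exposed replicates 1 to 4. Exposed replicate 3 lay inside the vehicle range of -0.05 to 0.13. At an unadjusted p below 0.05, 0 members were lower and 1, rpl12, was higher. Rpl12 had 61.6, 67.0, 39.4 and 62.2 FPKM in exposed larvae, against 12.3, 17.0, 12.6 and 23.5 FPKM in vehicle larvae (1.83 ± 0.52, unadjusted p = 0.004, adjusted p = 0.882). The exposed libraries all lay above the vehicle libraries, at levels far under those of its abundant partner rplp0 (3162 FPKM in exposed and 3370 FPKM in vehicle larvae). Whether fragments from similar sequences bear on the value for rpl12 was not tested, so that value is uncertain.

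Lipid transport and sterol genes were mostly below vehicle. Among apolipoproteins 17 of 18 members were below 0, with a median of -0.21 and 3 members lower at an unadjusted p below 0.05. In vehicle replicate 4 the list median stood at 0.30 relative to the vehicle mean, against -0.10 to -0.07 in the other vehicle libraries, and without it the median was -0.13 with 1 member lower. Without exposed replicate 1 or 2 there was also 1 member lower, and without vehicle replicate 1 or 3 there were 2. Apoa4b.2, an apolipoprotein of intestinal lipid particles (chromosome 16, 23947196 to 23948538; another gene with this symbol lies nearby), had 132, 105, 169 and 141 FPKM in exposed larvae, against 186, 188, 200 and 267 FPKM in vehicle larvae. The groups did not overlap, and the log2 fold change was -0.63 ± 0.16 (unadjusted p = 0.00198, adjusted p = 0.882). Apoa1a, the main protein of high-density lipoprotein, had 317, 221, 505 and 459 FPKM in exposed larvae, against 501, 526, 553 and 507 FPKM in vehicle larvae (-0.55 ± 0.25). Its vehicle libraries were close together, while exposed replicates 1 and 2 stood well below the other exposed libraries. The most abundant member, apoa2, averaged 1717 FPKM in exposed and 2006 FPKM in vehicle larvae (-0.20 ± 0.25). In the cholesterol synthesis list 19 of 22 members were below 0, with a median of -0.14 and 1 member, the sterol isomerase ebp, at an unadjusted p below 0.05 (1.85, 1.595, 2.41 and 0.912 FPKM in exposed larvae, against 3.29, 2.76, 3.37 and 3.26 FPKM in vehicle larvae, -0.94 ± 0.29). The list median was -0.077 without exposed replicate 2, and -0.26 with 5 lower without exposed replicate 3. There were 2 lower without exposed replicate 1, vehicle replicate 2 or vehicle replicate 4. With libraries scaled to equal totals 15 of 22 members were below 0 (median -0.10). Srebf2, the transcription factor that controls this pathway, averaged 19.6 FPKM in exposed and 19.5 FPKM in vehicle larvae (0.00 ± 0.13).

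Genes known to answer to fluorinated surfactants in mammals showed no passing change. In the list of PPAR targets and fatty acid oxidation 31 of 47 members were below 0, with a median of -0.11, 2 members higher and 6 lower at an unadjusted p below 0.05. Without exposed replicate 3 there were 14 lower (median -0.15), and with equal totals the median was -0.067. The receptor gene pparaa had 7.57, 7.08, 5.94 and 6.44 FPKM in exposed larvae, against 5.25, 5.33, 6.21 and 5.57 FPKM in vehicle larvae (0.27 ± 0.11, unadjusted p = 0.0374). Angptl4, an inhibitor of lipoprotein lipase and a PPAR target, had 50.4, 33.6, 45.9 and 47.8 FPKM in exposed larvae, against 57.1, 64.4, 56.4 and 46.9 FPKM in vehicle larvae (-0.35 ± 0.12, unadjusted p = 0.0155). Both genes overlapped between groups, in opposite directions from vehicle. The mitochondrial oxidation enzyme hadh had 40.2, 37.7, 49.8 and 36.4 FPKM in exposed larvae, against 51.0, 57.8, 50.0 and 52.4 FPKM in vehicle larvae (-0.37 ± 0.11). The carnitine palmitoyltransferase cpt1aa, which admits fatty acids to mitochondria, differed by -0.11 ± 0.08, with an interval of -0.29 to 0.07.

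The list of CYP2 and xenobiotic metabolism genes had 25 members above 0 and 22 below, a median of 0.01, and 4 higher and 3 lower at an unadjusted p below 0.05. The sign of this median changed when vehicle replicate 1 (-0.024), vehicle replicate 3 (-0.0045) or exposed replicate 3 (-0.0021) was left out. Its smallest p was that of sult2st1, a sulfotransferase of steroids and foreign compounds, with 30.1, 35.7, 34.6 and 26.04 FPKM in exposed larvae, against 21.2, 24.0, 25.0 and 24.9 FPKM in vehicle larvae (0.40 ± 0.10, unadjusted p = 0.00177). The groups did not overlap, and at 25 µM, against the same vehicle libraries, the gene rose by 0.48 (adjusted p = 0.0374). Cyp2k18, a cytochrome P450 that rose by 2.38 at 25 µM (86.6 to 129 FPKM, adjusted p = 1.48e-05), had 20.5, 19.4, 20.4 and 19.03 FPKM at 0.0025 µM, against 20.3, 22.5, 14.6 and 21.998 FPKM in vehicle larvae. Its log2 fold change at 0.0025 µM was 0.02 ± 0.14, with an interval of -0.29 to 0.33. Cyp1a, the classic target of the aryl hydrocarbon receptor, differed by 0.12 ± 0.09 (interval -0.08 to 0.32). In the list of NRF2 targets and redox enzymes 29 of 41 members were below 0, with a median of -0.13 and 6 lower at an unadjusted p below 0.05. Without exposed replicate 3 there were 11 lower (median -0.17) and without exposed replicate 2 there were 4 (-0.083), and with the gene length trend removed the median was also -0.083. The 6 included the peroxiredoxin prdx1 (9.04 FPKM in exposed and 12.8 FPKM in vehicle larvae, -0.49 ± 0.15), which had the smallest p, and the glutathione transferase gstp1, with 215, 167, 229 and 219 FPKM in exposed larvae, against 270, 267, 302 and 303 FPKM in vehicle larvae (-0.47 ± 0.15). The iron store ferritin fth1a, the most abundant of the list, had 820, 718, 910 and 839 FPKM in exposed larvae, against 955, 994, 947 and 977 FPKM in vehicle larvae (-0.24 ± 0.08). Gstp1 and fth1a did not overlap between groups.

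Liver secretory genes, of which 9 of 20 fell and 1 rose at 25 µM under the cycle (list median -0.76, same vehicle libraries), had a median of 0.03 at 0.0025 µM, with 12 members above 0 and 8 below. One member, the haem scavenger hpxa, had an unadjusted p below 0.05. It had 0.386, 0.987, 0.692 and 0.290 FPKM in exposed larvae, against 1.01, 1.33, 1.98 and 0.819 FPKM in vehicle larvae (-1.05 ± 0.36, unadjusted p = 0.0115), and exposed replicate 2 overlapped the vehicle range. The liver gene leg1.1 had 96.1, 90.3, 96.7 and 81.3 FPKM in exposed larvae, against 104, 77.2, 97.2 and 92.0 FPKM in vehicle larvae (-0.02 ± 0.26), and it had 12.5 to 37.3 FPKM at 25 µM. The complement and acute phase list had 16 of 24 members above 0 and a median of 0.12, with 2 higher and 1 lower at an unadjusted p below 0.05. The smallest p was that of the lower one, the lectin mbl2, which binds microbial sugars, with 3.33, 4.90, 2.55 and 4.196 FPKM in exposed larvae, against 7.59, 4.83, 4.44 and 5.53 FPKM in vehicle larvae (-0.58 ± 0.21, unadjusted p = 0.019). Its groups overlapped through exposed replicate 2. Of the 2 higher ones, c9, a pore-forming protein of the terminal complex and the most abundant of the list, had 139, 153, 139 and 153 FPKM in exposed larvae, against 130, 121, 135 and 115 FPKM in vehicle larvae (0.22 ± 0.09, unadjusted p = 0.0379). Cfb, a protease of the alternative pathway, had 22.7, 14.9, 14.3 and 14.9 FPKM in exposed larvae, against 8.60, 11.04, 15.3 and 6.82 FPKM in vehicle larvae (0.71 ± 0.26, unadjusted p = 0.02). The c9 groups did not overlap, and for cfb vehicle replicate 3 lay inside the exposed range. The coagulation list had a median of 0.00, with 0 members at an unadjusted p below 0.05.

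The thyroid axis list had a median of 0.06 over 15 tested members, and its smallest unadjusted p was 0.343, for the iodide transporter slc5a5. The deiodinase dio3b, which inactivates thyroid hormone, had 6.86, 9.32, 5.63 and 7.91 FPKM in exposed larvae, against 5.09, 9.08, 9.08 and 8.27 FPKM in vehicle larvae (-0.07 ± 0.22). Clock repressors and outputs had 19 of 28 members above 0 and a median of 0.10, with 3 higher at an unadjusted p below 0.05. These were the Rev-erb gene nr1d4a (0.28 ± 0.09) and the PAR bZIP factors tefa (0.28 ± 0.11) and dbpa (0.36 ± 0.16). The light-induced clock gene per2 had 4.25, 6.12, 4.97 and 4.82 FPKM in exposed larvae, against 3.27, 5.42, 4.66 and 3.198 FPKM in vehicle larvae (0.30 ± 0.22), and the groups overlapped. The clock time of collection is not stated. Rod phototransduction (median 0.05, n = 22) and lens crystallins (-0.02, n = 38) had 0 members at an unadjusted p below 0.05, and cone phototransduction (0.07, n = 24) had 1, the opsin kinase grk7b (-0.48 ± 0.22). Visual cycle genes, which renew the light-sensitive retinal, had 17 of 21 members below 0, a median of -0.10 and 1 lower at an unadjusted p below 0.05. This was the retinal-binding protein rlbp1b, with 5.32, 4.39, 4.19 and 3.75 FPKM in exposed larvae, against 5.95, 7.26, 7.99 and 5.98 FPKM in vehicle larvae (-0.61 ± 0.23), and its groups did not overlap. By library, the visual cycle median was 0.09 in exposed replicate 3 and -0.12 in exposed replicate 4. Both lay inside the vehicle range of -0.13 to 0.16.

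The synapse and neuron list, with a quartile range of -0.05 to 0.03, was among the tightest of the 44, and its most abundant member snap25a, a protein of vesicle fusion, averaged 170 FPKM in exposed and 167 FPKM in vehicle larvae (0.02 ± 0.06). Myelin genes had a median of -0.04, with 0 of 19 at an unadjusted p below 0.05, and muscle genes one of -0.07, with 1 of 57, the atrophy ligase fbxo32 (61.4 FPKM in exposed and 36.7 FPKM in vehicle larvae, 0.77 ± 0.31). Immediate early genes, which neurons and stressed cells switch on within minutes, had 30 of 37 members below 0 and a median of -0.17. At an unadjusted p below 0.05, 2 members (5.4%) were lower, against 3.33% of all genes. The smaller p of these belonged to the zinc finger factor egr4, with 22.5, 17.7, 19.3 and 22.9 FPKM in exposed larvae, against 41.8, 29.4, 33.7 and 32.1 FPKM in vehicle larvae (-0.73 ± 0.31), whose groups did not overlap. The AP-1 gene fosab had 46.6, 16.4, 23.6 and 33.6 FPKM in exposed larvae, against 42.0, 124, 49.8 and 50.7 FPKM in vehicle larvae (-1.11 ± 0.48). Vehicle replicate 2 stood far above the other libraries for this gene. Relative to the vehicle mean, the median of the 37 immediate early genes was 0.42 in that library and -0.24 to -0.01 in the other vehicle libraries. It was -0.02, -0.42, -0.29 and -0.06 in exposed replicates 1 to 4, so exposed replicates 1 and 4 lay inside the range of those other vehicle libraries. Among ionocyte and kidney genes the median was 0.00. At an unadjusted p below 0.05, 0 were lower and 4 of 40 (10%) higher, against 2.11% of all genes. These were the anion exchanger slc4a1b (2.78, 3.23, 2.71 and 2.56 FPKM in exposed larvae, against 1.99, 1.35, 2.44 and 1.61 FPKM in vehicle larvae, 0.61 ± 0.19), the sodium pump atp1a1a.2 (0.27 ± 0.10), the organic cation transporter slc22a2 (0.31 ± 0.13) and the ionocyte transcription factor foxi3a (0.28 ± 0.12). Matrix, cartilage and bone genes had 36 of 48 members below 0 and a median of -0.16, with 1 lower at an unadjusted p below 0.05, the cartilage collagen col2a1a (119 FPKM in exposed and 161 FPKM in vehicle larvae, -0.44 ± 0.15). Relative to the vehicle mean, this list's median was 0.02 in exposed replicate 3, inside the vehicle range of -0.08 to 0.07. It was -0.22 to -0.18 in the other exposed libraries. Haemoglobin and haem synthesis genes had 22 of 25 members below 0, a median of -0.16 and 1 lower at an unadjusted p below 0.05, the erythroid factor hemgn (12.34 FPKM in exposed and 15.1 FPKM in vehicle larvae, -0.29 ± 0.11). Its groups did not overlap. The list median by library was -0.18, 0.04, -0.31 and -0.21 in exposed replicates 1 to 4, and the vehicle libraries ran from -0.29 to 0.17.

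Genes that responded to 25 µM in constant darkness offered a set chosen in libraries that this contrast does not share. In darkness 4147 of 19058 genes (21.8%) passed at 25 µM, and 33.9% had an unadjusted p below 0.05. Of the 2284 that rose there and were tested here, the median log2 fold change at 0.0025 µM under the cycle was -0.02, with 57 higher and 84 lower at an unadjusted p below 0.05. Of the 1808 that fell there, the median was -0.09, with 11 higher and 96 lower. For falls of at least 2-fold in darkness the median was -0.24 over 386 genes, with 28 lower and 0 higher, and mcm4 of the cell cycle list had the smallest p among them. For rises of at least 2-fold it was -0.01 over 539 genes, with 15 higher and 10 lower. The share at an unadjusted p below 0.05, in either direction, was 6.17% for the rises and 5.92% for the falls. It was 4.64% for rises of at least 2-fold and 7.25% for falls of at least 2-fold. Over all 18917 genes the median was -0.02 and this share was 5.44%, with 2.11% higher and 3.33% lower.

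Of the 10 largest rises and 10 largest falls in darkness at 25 µM, none passed at 0.0025 µM under the cycle, and the smallest adjusted p was 0.882. Cyp2k6, a cytochrome P450 with a log2 fold change of 5.19 at 25 µM in darkness, had 0.696, 0.982, 0.731 and 0.572 FPKM at 0.0025 µM under the cycle, against 0.654, 0.765, 0.408 and 1.31 FPKM in vehicle larvae. The groups overlapped fully, and the difference was 0.01 ± 0.30 with an interval of -0.65 to 0.67. At 25 µM under the cycle it had 8.26, 8.36, 11.8 and 15.5 FPKM. The small heat shock protein hspb6 had 6.86, 10.4, 10.3 and 9.47 FPKM in exposed larvae, against 7.55, 10.09, 7.11 and 8.74 FPKM in vehicle larvae (0.14 ± 0.26), and 20.4 to 58.6 FPKM at 25 µM. The plasma fetuin ahsg2 had 12.1, 7.75, 13.02 and 5.19 FPKM in exposed larvae, against 13.3, 18.5, 10.0 and 9.21 FPKM in vehicle larvae (-0.46 ± 0.46), and 0.36 to 2.303 FPKM at 25 µM. For both genes the exposed libraries at 0.0025 µM overlapped those of vehicle and none reached the 25 µM range. The 1 gene of these 20 whose groups did not overlap at 0.0025 µM was cdca7a, a gene of S phase cells, with 4.14, 4.59, 5.23 and 4.14 FPKM in exposed larvae, against 7.79, 7.16, 5.83 and 13.04 FPKM in vehicle larvae (-0.83 ± 0.29, unadjusted p = 0.0146). Intervals were wide for some of the 20. They reached from -3.63 to 1.41 for the cytokine il11a, which had at most 0.42 FPKM in exposed and 0.903 FPKM in vehicle larvae.

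**Figure D5:**
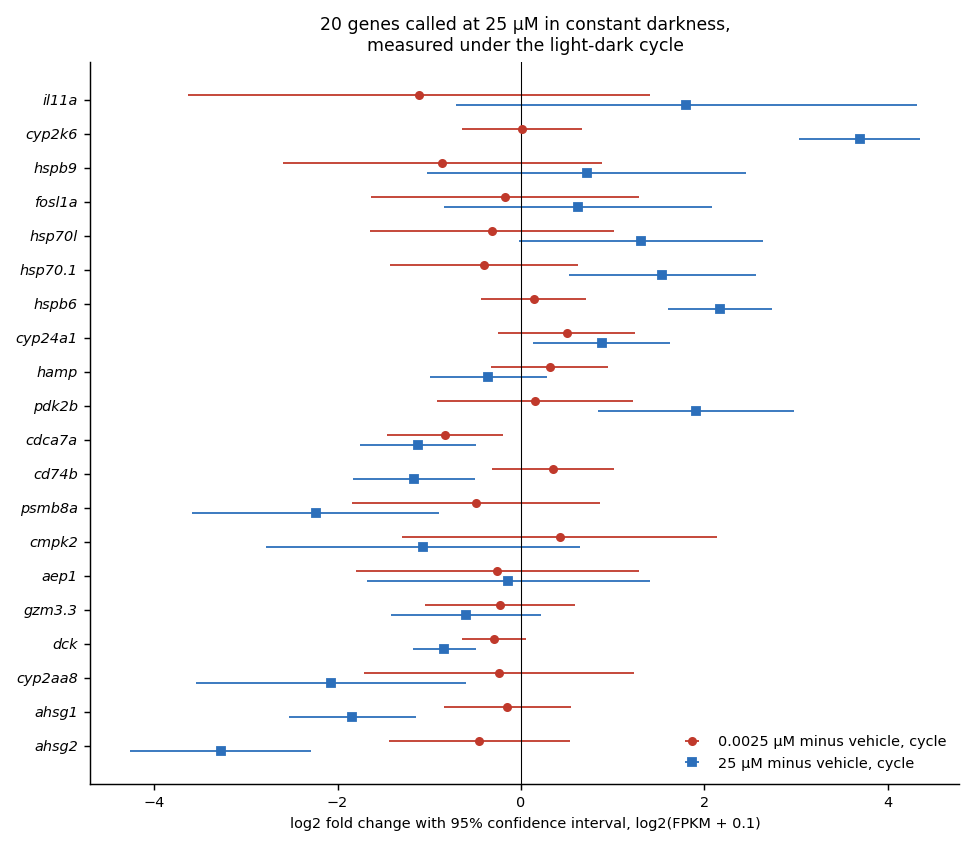
Log2 fold changes with 95% intervals of the 10 genes with the largest rises (il11a to pdk2b) and the 10 with the largest falls (cdca7a to ahsg2) at 25 µM in constant darkness, measured under the light-dark cycle at 0.0025 µM (red circles) and 25 µM (blue squares) against the same 4 vehicle libraries. At 0.0025 µM the interval includes 0 for every gene but cdca7a, and at 25 µM cyp2k6 stands at 3.69 and ahsg2 at -3.28.

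The same dose in constant darkness was measured in 8 other libraries. There 4 of 19058 genes (0.021%) passed and 1417 (7.44%) had an unadjusted p below 0.05. The 4 were LO018432.1, the chemokine ccl34a.4, a copy of the 5S ribosomal RNA gene and BX537263.4. Under the cycle ccl34a.4 had 21.4, 21.5, 25.6 and 45.03 FPKM in exposed larvae, against 15.5, 14.3, 15.4 and 10.8 FPKM in vehicle larvae. Its groups did not overlap and the log2 fold change was 0.96 ± 0.55 (unadjusted p = 0.108, adjusted p = 0.882). The fit behind this SE and p also held the 25 µM cycle libraries. Both values therefore do not measure the spread of the exposed and vehicle groups alone. In darkness ccl34a.4 had 19.4, 24.0, 14.5 and 19.6 FPKM in exposed larvae, against 6.64, 6.59, 6.42 and 7.97 FPKM in vehicle larvae (1.46 ± 0.17, adjusted p = 0.00843). The difference between the photoperiods did not pass (-0.50, adjusted p = 0.87). The other 3 genes differed under the cycle by -0.03 (LO018432.1), -0.21 (the 5S gene) and 0.55 (BX537263.4), none with an unadjusted p below 0.5.

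Of 18270 genes tested in both photoperiods, 8313 (45.5%) had the same sign at 0.0025 µM. An unadjusted p below 0.05 was found for 1005 genes under the cycle and 1368 in darkness. These lists shared 105 genes, 10.4% of the cycle list and 7.68% of the dark list. For comparison, the dark list held 7.49% of all genes tested in both photoperiods. Most of the 105 ran in opposite directions in the 2 photoperiods. The same sign was found for 25 (23.8%), against 45.5% of all genes tested in both. No shared response can be read from this count, and those of the 25 named here were picked from the smaller part of the 105. Golt1a was one of the 25. In darkness it had 7.72, 10.5, 9.94 and 6.65 FPKM in exposed larvae, against 11.5, 16.4, 12.8 and 17.8 FPKM in vehicle larvae (-0.74 ± 0.21, unadjusted p = 0.00333). Its exposed libraries lay below its vehicle libraries in both photoperiods. Others of the 25 were the complement protease cfb (0.71 under the cycle and 0.95 in darkness), c9 (0.22 and 0.43), the sodium pump atp1a1a.2 (0.27 and 0.33), the gluconeogenic enzyme fbp2 (-0.50 and -0.41) and the cytochrome P450 genes cyp3c4 (-0.72 and -0.38) and cyp2p9 (-1.42 and -0.55). Azin1b was among the larger part of the 105 that ran in opposite directions. In darkness it had 15.9, 14.4, 14.1 and 11.98 FPKM in exposed larvae, against 16.7, 19.4, 20.6 and 18.5 FPKM in vehicle larvae (-0.42 ± 0.09, unadjusted p = 0.000729).

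The difference between photoperiods in the effect of 0.0025 µM was tested over all 24 libraries, in which photoperiod cannot be told apart from library series. For azin1b it was 1.43 (unadjusted p = 1.09e-05, adjusted p = 0.109) and for snrnp40 -0.73 (adjusted p = 0.152), and neither passed. An unadjusted p below 0.05 was found for 1608 of 20145 genes (7.98%). Of these 1 (0.00496%) passed, LO018432.1, with a difference of -4.15 (adjusted p = 0.00158). It is a protein-coding gene of 213 bases with no symbol of its own in the deposited table (chromosome 17, 1627379 to 1629413), and its counts were low. Under the cycle it had 3, 8, 5 and 8 fragments in exposed larvae, against 14, 3, 3 and 10 in vehicle larvae, a ratio of 0.837 with an exact 95% counting interval of 0.468 to 1.48. In darkness it had 4, 3, 5 and 2 fragments in exposed larvae and 0 in each vehicle library, so it was at least 4.42-fold higher against a floor of 3 fragments over the vehicle group. The fitted difference depends on the added 0.1 FPKM, since 1 group was at 0, and no gene passed with a pseudocount of 1 or with limma-voom.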

How the data were processed

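RNA-seq of whole larvae was analysed from the gene-level FPKM values deposited by the authors in 2 tables, 1 per photoperiod. Alignment with HISAT2 2.0.5 and counting with featureCounts 1.5.0-p3 are given per the submitters' processing notes. Neither build nor annotation release nor strand is given in the sources used here, so antisense and overlapping genes may share fragments. Multiplied by gene length and divided by the smallest step of its library, every deposited FPKM above 0 (100%) was a whole number within 0.001, and these were taken as fragments. All 24 value columns were used and no 2 libraries were identical.

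Values were tested as log2(FPKM + 0.1) with limma 3.58.1 in R 4.3.3 (empirical Bayes with intensity trend), in 1 fit of the 12 libraries of a photoperiod, or of all 24 for the difference. Genes entered with 0.5 FPKM or more in 4 or more libraries. Calls needed a Benjamini-Hochberg adjusted p below 0.05. The procedure was tested on simulated data. Named genes were to be the largest called changes with a mean of at least 1 FPKM, a symbol and groups that did not overlap. As none was called, the 12 smallest p meeting the other conditions were named. Genes such as pparaa, angptl4, cyp2k18, leg1.1, dio3b and per2 were given for their known roles or earlier results. Of 1635 list entries, written from general knowledge, 1563 matched the table and 1385 were tested. The comparison, the lists and the named roles were chosen with earlier results of these data known. Alternatives were a pseudocount of 1, 2 other filters, limma-voom on recovered fragments, 2 other scalings, no intensity trend, only the groups compared, the replicate number as a block and each library left out. Removal of a gene length trend was added after the data were seen. Counting intervals cover counting error only. The deviations of same-numbered exposed and vehicle libraries correlated with r of -0.053 to 0.047, so the numbers were not taken to pair libraries.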

Additional observations from a re-analysis of the deposited data

Results flagged for a closer look

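In 68 groups of 4 libraries, 4 held a library far from the other 3, where chance alone gives about 1 in 20. Cyhr1 had 30.6 FPKM in exposed replicate 2, against 26.9 to 27.12 FPKM in the other exposed libraries. The kinase gene dck, which salvages deoxynucleosides, had 2.09 FPKM in exposed replicate 2, against 2.76 to 2.85 FPKM in the other exposed libraries. That library was also the deepest of its group, with 18.5 M fragments where the others held 10.45 to 11.6 M. Fosl1a, an AP-1 factor, had 15.7 FPKM in vehicle replicate 2, against 1.98 to 3.12 FPKM in the other vehicle libraries.

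LO018432.1 differed between the photoperiods in its response to 0.0025 µM, by -4.15 on the log2 scale in the test of the difference itself, a call that was lost with a pseudocount of 1 and with limma-voom. All its libraries held at most 14 fragments.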

How the results depend on the processing

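The 0 calls at 0.0025 µM under the cycle held under the planned pseudocount, filter, scaling, limma-voom, trend and sample choices and under the removal of a length trend. With a library left out the count was 0 to 1, and the 1 call came without vehicle replicate 4, for CR759907.1 (adjusted p = 0.0446). That library held the only vehicle fragment of this gene. Without it the vehicle group was at 0, and the fitted change depends on the added 0.1 FPKM. The number of genes at an unadjusted p below 0.05 was 1029, against 2020 (10.75%) without exposed replicate 3 and 666 (3.55%) without exposed replicate 2. With the replicate block it was 934 with 0 calls. The cause of these shifts was not tested.

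In darkness the 4 calls at 0.0025 µM became 0 with limma-voom and 1 with the replicate block, and 3 to 7 with a library left out. The 328 calls at 25 µM under the cycle became 137 without the intensity trend, 109 with only the groups compared and 162 with the replicate block, and 70 (without vehicle replicate 3) to 764 (without 25 µM replicate 1) with a library left out. The 1 call of the difference became 0 with a pseudocount of 1 or limma-voom, and 2 with no filter, equal totals or only the groups compared. With a library left out it was 1 to 10, and 10 came without exposed cycle replicate 3.

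Of the genes described from darkness, 7 changed sign in 12 results. With a pseudocount of 1 cyp2k6 was -0.013. With a library left out, cyp2k6 ran from -0.22 to 0.27, fosl1a from -0.52 to 0.46, cyp2aa8 from -0.54 to 0.026, aep1 from -0.68 to 0.24, cmpk2 from -0.24 to 1.02, cd74b from -0.041 to 0.55 and pdk2b from -0.033 to 0.33. The other 562 gene results kept their direction. They include those of the 12 genes with the smallest p, whose groups did not overlap by the naming rule. Leaving out a library could not reverse the sign of such a gene. Of 144 list medians 141 did, and 3 of the CYP2 and xenobiotic list changed sign, which ran from -0.024 to 0.054 with a library left out.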
